A study of Homo sapiens with 3 samples.

Results

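SR proteins and heterogeneous nuclear ribonucleoproteins (hnRNPs) are the abundant RNA-binding proteins that steer the choice of splice sites. Their 37 genes were followed in Cal62 cells silenced for ADAR1, gene by gene, out of 58333 genes in the deposited table. They were picked by name alone, as every row whose Ensembl identifier maps to 1 of 37 listed symbols, a rule that uses no measured value. Earlier results of these data were known when the genes were chosen. The set holds 11 SRSF genes, the related TRA2A and TRA2B, and 24 hnRNP genes, which include RALY, SYNCRIP, PCBP1 and PCBP2. All 37 passed the filter on low values, as did 20247 genes in all.

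Cal62 is an established human thyroid cancer cell line. The cells were transfected with a negative control siRNA (siControl), with siADAR1 #1 or with siADAR1 #2, both directed against the RNA-editing enzyme ADAR1, and the labels name no other treatment or engineered allele. Each transfection was done in 2 biological replicates, and their poly(A)+ RNA gave 6 libraries of 75-bp paired-end reads. The sample labels list 1 sample per transfection, and the 2 columns of each were taken as the replicates that the study's methods describe. A p-value therefore measures the spread between these cultures of 1 cell line.

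SR proteins carry RNA recognition motifs and a domain rich in arginine and serine dipeptides. They usually bind exonic enhancers and recruit the splicing machinery, and kinases of the SRPK and CLK families phosphorylate them. Many hnRNPs coat nascent transcripts, often favour exon skipping when they bind near an exon, and also act in mRNA export, stability and translation. Both families are known to control their own mRNAs, in many cases through exons or introns whose inclusion leads to nonsense-mediated decay.

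The libraries held 30114840 to 50029763 reads on genes, and 3 reads corresponded to 2.81 to 4.39 normalized counts. Values below are normalized counts, recovered from the deposited log2 values. Log2FC values are differences of the log2 values themselves. ADAR, the gene of ADAR1, had 10906 and 11701 normalized counts in siControl, 1328 and 2246 with siADAR1 #1 and 1663 and 2928 with siADAR1 #2, so silencing was visible in each of the 4 siADAR1 libraries. Of 8 thyroid follicular markers 5 passed the filter, and NKX2-1 was at 0 in every library. The summed thyroid markers ranged from 16292 to 18143 in siControl, from 12849 to 17806 with siADAR1 #1 and from 4692 to 7475 with siADAR1 #2. The 5 mesenchymal markers summed to 274177 to 286099 in siControl, 82947 to 135214 with siADAR1 #1 and 88740 to 156486 with siADAR1 #2. All 6 epithelial markers passed, with sums of 131972 to 180075, 207211 to 301310 and 104548 to 116083 in the same order. Of the markers of other cell types, 1 of 5 leukocyte markers (CD14), 3 of 4 endothelial and 2 of 7 fibroblast markers (COL1A1, COL1A2) passed. Leukocyte markers summed to 39.8 to 47.9 in siControl, 124 to 134 with siADAR1 #1 and 27.2 to 30.8 with siADAR1 #2, and CD3E was at 0. Endothelial markers summed to 93.8 to 118, 170 to 174 and 104 to 128 in the same order. Fibroblast markers summed to 5833 to 7175 in siControl, 3378 to 3986 with siADAR1 #1 and 2869 to 3994 with siADAR1 #2. The part of these markers in the results below was not tested, and in bulk RNA fewer cells of a type and less RNA per cell cannot be told apart.

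A gene was called when its adjusted p-value was below 0.05 and its log2FC lay beyond 0.5 in either direction, the thresholds of the study. With siADAR1 #1, 5 of the 37 genes were called, which is 13.5% of them, whereas 17.4% of all genes tested were called. Only HNRNPLL was higher, and HNRNPH3, PCBP1, HNRNPUL1 and HNRNPUL2 were lower. The background was 6.39% for higher and 11.0% for lower calls. The share of these genes called with siADAR1 #1 was thus not above the background. Among the 14299 genes with a mean of at least 50 normalized counts, 24.1% were called, with 8.36% higher and 15.8% lower. The set then kept its 5 calls. With no limit on log2FC, 8 genes (21.6%) passed, beside 18.9% of all genes. When each library was centred on its median, the median log2FC of all genes with siADAR1 #1 moved from -0.03 to 0.11. The calls among all genes then shifted from 1293 higher and 2225 lower to 1938 higher and 1723 lower, and those among the 37 from 1 higher and 4 lower to 1 higher (HNRNPLL) and 1 lower (HNRNPUL1). Quantile normalization gave 1686 higher and 1827 lower calls among all genes and 1 higher and 2 lower in the set. Without siControl replicate 1 the count of called genes fell to 0 in the set and from 3518 to 312 among all genes (1.54%), and without siADAR1 #1 replicate 1 to 1 (HNRNPUL1) and 1291 (6.38%).

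With siADAR1 #2, 17 of the 37 genes were called, or 45.9%, against 27.5% of all genes tested. TRA2A and HNRNPH2 were higher, where 11.6% of all genes were. The other 15, which is 40.5% of the set, were lower, where 16.0% of all genes were. Those 15 were SRSF2, SRSF4, SRSF7, SRSF9, TRA2B, HNRNPA3, HNRNPAB, HNRNPDL, HNRNPH1, HNRNPH3, HNRNPL, HNRNPM, HNRNPU, HNRNPUL1 and HNRNPUL2. The background depended on expression. Among the 14299 genes with a mean of at least 50 normalized counts, 36.0% were called, with 14.2% higher and 21.8% lower. The set then kept its 17 calls. Centring the libraries on their medians left 2 higher and 13 lower, with SRSF2 and SRSF7 within the limit (-0.49 for each). Of all genes, 12.3% were then higher and 15.2% lower. Quantile normalization left 3 higher and 9 lower, with SRSF2, SRSF7, HNRNPH1, HNRNPL, HNRNPM and HNRNPU within the limit, and SRSF11 then called higher. The shares of all genes were 13.3% higher and 14.1% lower. With no limit on log2FC, 24 genes (64.9%) passed, beside 30.5% of all genes. Without siADAR1 #2 replicate 1, 10 of the 37 and 15.3% of all genes were called.

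The median log2FC of the 37 genes was -0.22 with siADAR1 #1 and -0.40 with siADAR1 #2, beside -0.03 and -0.02 for all genes tested. Among the 14299 genes with a mean of at least 50 normalized counts, that median was -0.07 with each siRNA. The shares of all genes in this paragraph were not recomputed at that filter. With centred libraries the median of the set was -0.08 and -0.36, and with quantile normalization -0.15 and -0.21. Both comparisons use the same siControl libraries, and 28 of 37 genes had a negative log2FC in each of them, where 52.3% and 51.0% of all genes did. Both siADAR1 #1 libraries lay below both of siControl in 25 genes (67.6%, beside 33.4% of all genes) and above them in 8 (21.6%, beside 28.5%). For siADAR1 #2 the counts were 26 (70.3%, beside 35.6%) and 5 (13.5%, beside 32.5%). SR and TRA2 genes had medians of -0.24 and -0.40, and hnRNP genes of -0.22 and -0.40. All 37 together took 1.44% and 1.49% of the reads in siControl, 1.31% and 1.35% with siADAR1 #1 and 1.23% and 1.26% with siADAR1 #2. The 4 siADAR1 libraries thus gave these genes a smaller share of reads than either siControl library.

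**Figure D1:**
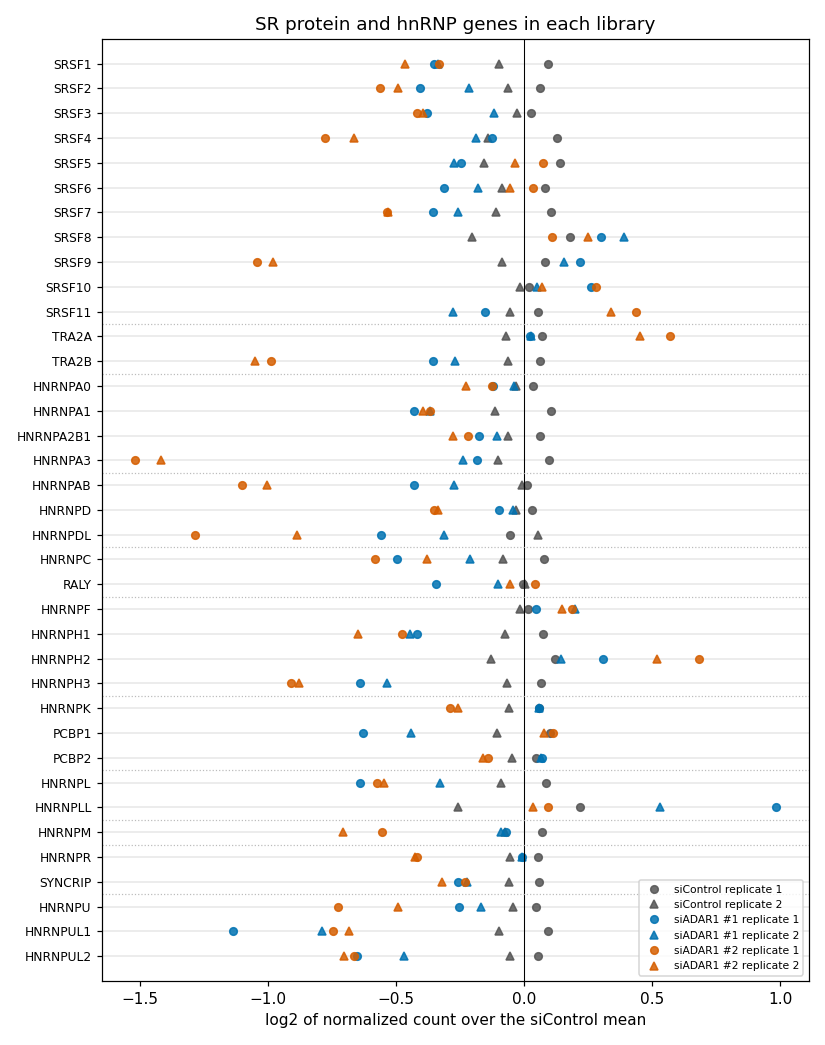
Normalized count of each of the 37 genes in each of the 6 libraries, as log2 over the siControl mean (x axis); circles are replicate 1 and triangles replicate 2, in grey for siControl, blue for siADAR1 #1 and orange for siADAR1 #2, with families set apart by dotted lines. HNRNPA3, HNRNPDL, HNRNPAB, TRA2B and SRSF9 with siADAR1 #2 and HNRNPUL1 with siADAR1 #1 reach furthest to the left, and HNRNPLL with siADAR1 #1 furthest to the right.

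Lower calls with both siRNAs were made for 3 of the 37 genes (8.11%), HNRNPUL1, HNRNPUL2 and HNRNPH3, beside 3.55% of all genes tested. Both comparisons share the siControl libraries, so calls with both are not independent. With centred libraries HNRNPH3 (-0.45) and HNRNPUL2 (-0.42) lay within the limit with siADAR1 #1, which left HNRNPUL1. None was called higher with both and none in opposite directions, where 1.86% and 1.62% of all genes were. Another 2 (5.41%) were called with siADAR1 #1 alone, where 10.4% of all genes were. With siADAR1 #2 alone 14 (37.8%) were called, a larger share than the 4151 of all 20247 genes tested. The other 18 (48.6%) were called with neither, beside 62.1% of all genes.

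Promoter sequence is shown for the genes on which these results turn, namely HNRNPUL1 and HNRNPUL2, lower with both siRNAs, and HNRNPA3, which had the largest change in the set. RefSeq windows on GRCh38.p14 were cut at the first base that an annotated exon of the same gene covers. The HNRNPH3 window lay within an annotated exon of that gene and is not printed. The stretches are HNRNPUL1 chr19:41262307-41262495 (plus strand), HNRNPUL2 chr11:62727458-62727707 (minus strand) and HNRNPA3 chr2:177212544-177212693 (plus strand), each written from 5′ to 3′ with CCAAT boxes (CCAAT) and GC boxes (GGGCGG), on either strand, in capitals.
HNRNPUL1: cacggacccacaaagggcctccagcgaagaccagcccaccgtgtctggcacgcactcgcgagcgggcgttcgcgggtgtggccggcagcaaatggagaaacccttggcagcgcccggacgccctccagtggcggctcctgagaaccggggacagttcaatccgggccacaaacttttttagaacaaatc
HNRNPUL2: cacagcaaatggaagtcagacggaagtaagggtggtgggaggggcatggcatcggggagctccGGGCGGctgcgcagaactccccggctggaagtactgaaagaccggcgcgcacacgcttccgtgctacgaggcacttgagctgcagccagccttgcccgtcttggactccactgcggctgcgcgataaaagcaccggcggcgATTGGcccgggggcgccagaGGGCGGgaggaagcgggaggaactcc
HNRNPA3: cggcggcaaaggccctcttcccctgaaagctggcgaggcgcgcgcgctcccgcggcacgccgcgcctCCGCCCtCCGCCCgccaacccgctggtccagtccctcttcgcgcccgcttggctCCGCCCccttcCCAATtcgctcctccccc
HNRNPUL2 showed 1 CCAAT box and 2 GC boxes, HNRNPA3 1 CCAAT box and 3 GC boxes, and HNRNPUL1 no match to either in the stretch printed. Of the 37 genes, 34 had a RefSeq window of 300 bases, from 250 bases before to 50 after the start, and SRSF2, TRA2A and HNRNPA1 had none. On both strands, a GC box stood in 24 of the 34 windows (70.6%) and in 45.0% of 35116 promoters of the same length. HNRNPUL1 was among the 24, with a match that is not within the stretch printed. The CCAAT box was in 44.1% and 34.6%, an ETS motif (CCGGAAG) in 20.6% and 10.3%, and a TATA box (TATAAA) in 14.7% and 11.5%. A YY1 motif (AGATGGC) was in 0 windows of the set and in 5.41% of all promoters, an NRF1 core (GCATGCG) in 2.94% and 3.91%, and a CRE (TGACGTC) in 2.94% and 3.45%. The windows had a median GC content of 65.7% and a median of 30 CpG dinucleotides, beside 58.7% and 14 for all promoters. These matches describe letters in a window, and no binding was measured.

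In siControl cells the genes spanned a wide range of levels. Counts divided by exon length and scaled to 1000000 per library (per-length level) were highest for HNRNPA1 at 848 ± 47.3 (SD, n = 2), followed by HNRNPAB at 791 ± 120, HNRNPK at 596 ± 63.4, PCBP1 at 568 ± 35.0 and HNRNPF at 425 ± 62.3. HNRNPA1 and HNRNPAB did not differ beyond their spread, nor did HNRNPK and PCBP1. The lowest per-length levels were those of HNRNPLL, at 12.6 ± 0.884, and SRSF8, at 25.6 ± 0.664. SRSF1 was the highest SR gene at a per-length level of 298 ± 20.0, and it ranked 9 of 37. The exon length joined the exons of all annotated transcripts, from 1727 bases for PCBP1 to 22512 for HNRNPU. Levels and ranks therefore depend on the annotation. By normalized counts, HNRNPA2B1, HNRNPU and HNRNPK followed HNRNPA1 in siControl.

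**Figure D2:**
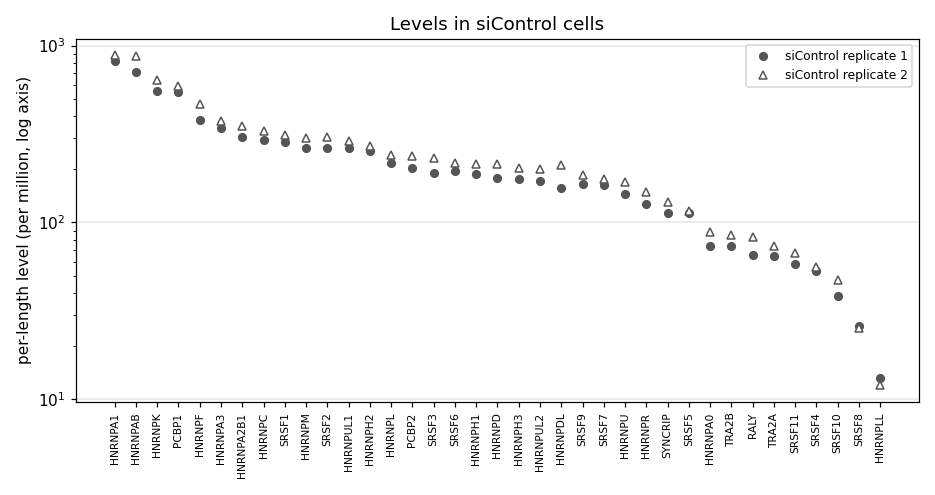
Per-length level of each gene in the 2 siControl libraries (y axis, per 1000000, log axis), with genes ordered by their mean; filled circles are replicate 1 and open triangles replicate 2. HNRNPA1 and HNRNPAB stand highest, with overlapping values, and HNRNPLL lowest.

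Among the 11 SR genes, 0 were called with siADAR1 #1 (17.4% of all genes) and 4 were called lower with siADAR1 #2 (16.0% of all genes). SRSF9, on GRCh38 chr12:120461672-120495946 (ENSG00000111786), is a small SR protein closely related to SRSF1. It had 10273 and 9142 normalized counts in siControl, 11272 and 10794 with siADAR1 #1, and 4714 and 4919 with siADAR1 #2. The siADAR1 #2 libraries lay far below the 4 others, and the siADAR1 #1 libraries lay above siControl. SRSF9 fell with siADAR1 #2 (log2FC -1.01, SE 0.108, adjusted p = 0.000841), and its log2FC with siADAR1 #1 was 0.19 (adjusted p = 0.276). Between the siRNAs, SRSF9 was higher with siADAR1 #1 (log2FC 1.20, adjusted p = 0.000359).

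GATC, which encodes a subunit of a mitochondrial amidotransferase, lies on the strand opposite to SRSF9 and shares 43.6% of the exonic bases of SRSF9. GATC had 2714 and 2753 normalized counts in siControl, 4118 and 4134 with siADAR1 #1 and 1851 and 2108 with siADAR1 #2. It differed between the siRNAs in the same direction as SRSF9 (log2FC 1.06, adjusted p = 0.00066). Whether reads were counted by strand is not given in the sources used here, so reads of these genes cannot be told apart where they overlap.

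SRSF4, a longer SR protein, fell with siADAR1 #2 (log2FC -0.72, SE 0.126, adjusted p = 0.00493), from 7387 and 6129 normalized counts in siControl to 3937 and 4260. It had 6190 and 5937 with siADAR1 #1, which overlapped siControl, and differed between the siRNAs (log2FC 0.57, adjusted p = 0.0104). SRSF2, which binds exonic enhancers of a broad set of exons, fell with siADAR1 #2 by 0.53 on the log2 scale (adjusted p = 0.0115). SRSF7, also an adaptor for mRNA export, fell by 0.53 as well (adjusted p = 0.0112). The SRSF2 and SRSF7 changes lay close to the limit on log2FC and were not called without siControl replicate 1 (-0.46, adjusted p = 0.0708, and -0.42, adjusted p = 0.0671) or without siADAR1 #2 replicate 1 (adjusted p = 0.0821 and 0.0693). SRSF7 was also not called without siADAR1 #2 replicate 2 (adjusted p = 0.0534). The difference of SRSF4 between the siRNAs was not called without siADAR1 #2 replicate 1 (0.51, adjusted p = 0.071).

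The other SR genes were called with neither siRNA. SRSF1, the founding SR protein, had values of -0.34 with siADAR1 #1 and -0.40 with siADAR1 #2 (adjusted p = 0.0693 and 0.0301), and SRSF3, the smallest, of -0.25 and -0.41. SRSF5 and SRSF6 had log2FC values of -0.25 and -0.24 with siADAR1 #1 and of 0.03 and -0.01 with siADAR1 #2. SRSF11 had 7690 and 7125 normalized counts in siControl, 6651 and 6115 with siADAR1 #1 and 10012 and 9357 with siADAR1 #2. Its groups did not overlap, and siControl lay between the siRNAs. SRSF11 was lower with siADAR1 #1 than with siADAR1 #2 (log2FC -0.60, SE 0.109, adjusted p = 0.00431), although it was called in neither comparison with siControl (-0.21 and 0.39). SRSF8, a retrogene-derived relative of SRSF2, and SRSF10, which acts as a splicing repressor when dephosphorylated, had positive log2FC values with both siRNAs, of 0.36 and 0.19 and of 0.15 and 0.17, and neither was called.

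TRA2A and TRA2B are SR-like activators that bind GA-rich exonic enhancers. TRA2B (ENSG00000136527, chr3:185914558-185938103) had 15052 and 13769 normalized counts in siControl, 11251 and 11953 with siADAR1 #1 and 7258 and 6947 with siADAR1 #2. All siADAR1 libraries lay below siControl and those of siADAR1 #2 lowest. TRA2B fell with siADAR1 #2 (log2FC -1.02, SE 0.104, adjusted p = 0.0007), its value with siADAR1 #1 was -0.31 (adjusted p = 0.0772), and the siRNAs differed (log2FC 0.71, adjusted p = 0.00184).

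TRA2A had 3560 and 3229 normalized counts in siControl, 3443 and 3459 with siADAR1 #1 and 5039 and 4648 with siADAR1 #2. Only the siADAR1 #2 libraries stood apart from siControl. TRA2A rose with siADAR1 #2 (log2FC 0.51, SE 0.114, adjusted p = 0.0127), a call lost without siControl replicate 2 (0.44, adjusted p = 0.0695) or without siADAR1 #2 replicate 1 (0.45, adjusted p = 0.0939). In per-length levels, TRA2A made up 46.8% and 46.6% of the sum of both TRA2 genes in siControl, 53.2% and 51.9% with siADAR1 #1 and 72.1% and 71.3% with siADAR1 #2. TRA2A thus took a larger share with siADAR1 #2 than in siControl. These shares rest on exon lengths of 3516 bases for TRA2A and 13084 for TRA2B, and TRA2B had more normalized counts in every library.

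**Figure D3:**
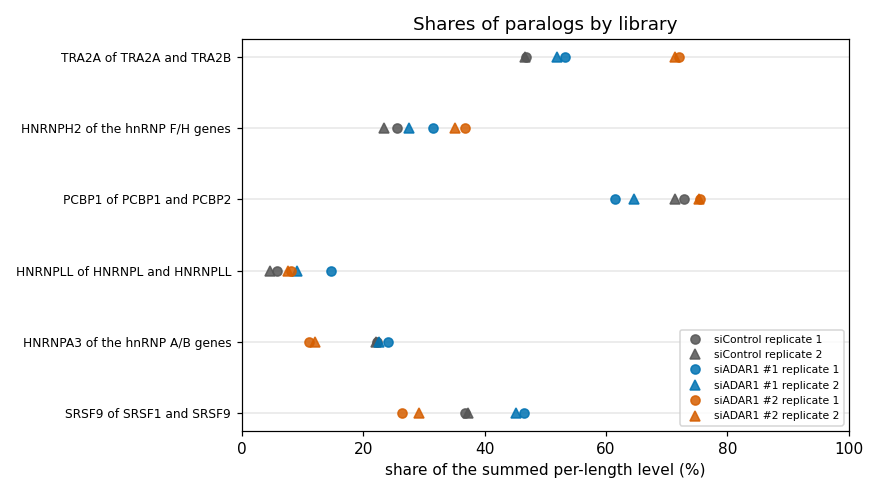
Share of the summed per-length level that 1 gene took within its group of paralogs (x axis, percent) in each library; circles are replicate 1 and triangles replicate 2, in grey for siControl, blue for siADAR1 #1 and orange for siADAR1 #2. Within their rows, TRA2A, HNRNPH2 and PCBP1 lie furthest right and HNRNPA3 and SRSF9 furthest left with siADAR1 #2, while HNRNPLL and SRSF9 lie furthest right and PCBP1 furthest left with siADAR1 #1.

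The hnRNP A/B genes encode abundant shuttling proteins that often oppose SR proteins at an exon. HNRNPA3 (ENSG00000170144, chr2:177212694-177223959) showed the largest log2FC of the 37 genes. It had 35177 and 30648 normalized counts in siControl, 28932 and 27898 with siADAR1 #1 and 11458 and 12304 with siADAR1 #2. The siADAR1 #2 libraries held 36.1% of the siControl mean and the siADAR1 #1 libraries 86.3%. HNRNPA3 fell with siADAR1 #2 (log2FC -1.47, SE 0.109, adjusted p = 0.000384), had a log2FC of -0.21 with siADAR1 #1 (adjusted p = 0.228), and differed between the siRNAs (1.26, adjusted p = 0.000321).

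Of the exonic bases of HNRNPA3, 53.6% are shared with NFE2L2 on the opposite strand, the gene of the antioxidant regulator NRF2. NFE2L2 had between 3241 and 4292 normalized counts in all libraries and log2FC values of 0.21 and 0.25, neither of them called. The A/B genes were here HNRNPA0, HNRNPA1, HNRNPA2B1 and HNRNPA3, with HNRNPAB placed in the hnRNP D group. Within their summed per-length level, HNRNPA3 took 22.3% and 22.1% in siControl, 24.1% and 22.6% with siADAR1 #1 and 11.0% and 12.0% with siADAR1 #2. Its 16 named pseudogenes together held 0.43% to 0.663% as many reads as the gene.

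HNRNPA1, the most abundant of the set, had 85500 and 73519 normalized counts in siControl, 58968 and 61549 with siADAR1 #1 and 61553 and 60435 with siADAR1 #2. All siADAR1 libraries lay below siControl, by about the same amount with each siRNA. Its log2FC values of -0.40 and -0.38 passed the p-value (adjusted p = 0.04 and 0.0324) but not the limit on log2FC. HNRNPA1 has 74 named pseudogenes, whose reads came to 0.96% to 1.77% of its own. HNRNPA2B1, which is known for binding RNA sorted into granules and exosomes, had log2FC values of -0.14 and -0.25, and HNRNPA0 of -0.08 and -0.18.

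The hnRNP D group binds AU-rich elements and G-rich nucleic acids, and 2 of its 3 genes were called lower with siADAR1 #2, where 16.0% of all genes were. HNRNPAB (ENSG00000197451, chr5:178204533-178211163) had 23436 and 23106 normalized counts in siControl, 17258 and 19263 with siADAR1 #1 and 10850 and 11595 with siADAR1 #2. HNRNPDL (ENSG00000152795, chr4:82422565-82430462) had 13499 and 14589, then 9529 and 11313, then 5755 and 7598 normalized counts in the same order. In both genes the 3 groups did not overlap and descended from siControl over siADAR1 #1 to siADAR1 #2.

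HNRNPAB fell with siADAR1 #2 (log2FC -1.05, SE 0.104, adjusted p = 0.000635) and differed between the siRNAs (0.70, adjusted p = 0.00191). HNRNPDL fell with siADAR1 #2 too (log2FC -1.09, SE 0.157, adjusted p = 0.00225), with a difference between the siRNAs of 0.65 (adjusted p = 0.0142). With siADAR1 #1 neither was called, at -0.35 (adjusted p = 0.0535) and -0.43 (adjusted p = 0.0957). The HNRNPDL difference between the siRNAs was not called without siADAR1 #1 replicate 2 (0.53, adjusted p = 0.0724) or without siADAR1 #2 replicate 1 (0.45, adjusted p = 0.0925). HNRNPD itself, also known as AUF1, had log2FC values of -0.07 and -0.34 (adjusted p = 0.0295 for the latter) and was not called.

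HNRNPC, whose tetramers package long nascent transcripts and guard against the use of cryptic exons in Alu elements, had 33548 and 29994 normalized counts in siControl. It had 22522 and 27390 with siADAR1 #1 and 21231 and 24396 with siADAR1 #2, so every siADAR1 library lay below siControl. Its log2FC values of -0.35 and -0.48 (adjusted p = 0.0306 for the latter) stayed within the limit. RALY, its closest relative in the set, had log2FC values of -0.22 and -0.01.

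The hnRNP F/H proteins bind runs of G, and their genes moved in different directions. HNRNPH3 (ENSG00000096746, chr10:68331174-68343193) had 14795 and 13495 normalized counts in siControl, 9076 and 9744 with siADAR1 #1 and 7528 and 7692 with siADAR1 #2. Every siADAR1 library lay well below siControl. HNRNPH3 fell with siADAR1 #1 (log2FC -0.59, SE 0.105, adjusted p = 0.0107) and with siADAR1 #2 (-0.89, SE 0.105, adjusted p = 0.0011). The first of these calls was lost without siControl replicate 1 (-0.52, adjusted p = 0.0733) or without siADAR1 #1 replicate 1 (-0.54, adjusted p = 0.0633), and the second held with every library left out.

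HNRNPH2, an X-linked gene nearly identical in protein to HNRNPH1, had 9174 and 7699 normalized counts in siControl, 10446 and 9324 with siADAR1 #1 and 13526 and 12073 with siADAR1 #2. Its siADAR1 libraries all lay above siControl. HNRNPH2 rose with siADAR1 #2 (log2FC 0.60, SE 0.13, adjusted p = 0.0111), a call lost without siControl replicate 2 (0.48, adjusted p = 0.0635) or without siADAR1 #2 replicate 1 (0.52, adjusted p = 0.0859). HNRNPH1 fell with siADAR1 #2 (-0.56, adjusted p = 0.00723), a call lost without siControl replicate 1 or siADAR1 #2 replicate 2 (-0.49 and -0.48), and had a log2FC of -0.43 with siADAR1 #1 (adjusted p = 0.0319). The share of HNRNPH2 in the summed per-length level of the F/H genes was 25.5% and 23.4% in siControl, 31.5% and 27.6% with siADAR1 #1 and 36.8% and 35.0% with siADAR1 #2. How the counting divided reads between these near-identical paralogs is uncertain.

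HNRNPF, the other abundant member of this family, had 19544 and 19121 normalized counts in siControl, 19970 and 22185 with siADAR1 #1 and 22001 and 21383 with siADAR1 #2. The siADAR1 libraries lay above siControl by a small margin. Its log2FC values of 0.12 and 0.17 were not called.

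HNRNPK and the PCBP proteins bind runs of C through KH domains. PCBP1 (ENSG00000169564, chr2:70087477-70089203), an intronless gene, had 14721 and 12760 normalized counts in siControl, 8876 and 10108 with siADAR1 #1 and 14844 and 14475 with siADAR1 #2. It was low with siADAR1 #1 only, and the other 4 libraries lay together. PCBP1 fell with siADAR1 #1 (log2FC -0.53, SE 0.119, adjusted p = 0.0211), had a log2FC of 0.10 with siADAR1 #2, and differed between the siRNAs (-0.63, adjusted p = 0.00514).

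The call of PCBP1 against siControl was lost without siControl replicate 1 (-0.43, adjusted p = 0.115) or without siADAR1 #1 replicate 1 (-0.44, adjusted p = 0.12), while its difference between the siRNAs held with every library left out. PCBP1-AS1 on the opposite strand shares 73.2% of the exonic bases of PCBP1, and it had between 405 and 560 normalized counts. PCBP2 had log2FC values of 0.07 and -0.15 and was not called. In per-length levels, PCBP1 made up 72.8% and 71.3% of the sum of PCBP1 and PCBP2 in siControl, 61.4% and 64.5% with siADAR1 #1 and 75.5% and 75.3% with siADAR1 #2. These shares rest on exon lengths of 1727 bases for PCBP1 and 7926 for PCBP2, and PCBP2 had more normalized counts in every library.

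HNRNPK had 49306 and 45540 normalized counts in siControl, 49335 and 49365 with siADAR1 #1 and 38748 and 39580 with siADAR1 #2. Only the siADAR1 #2 libraries lay below siControl. Its log2FC values were 0.06 and -0.27, and neither reached the limit.

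HNRNPL and HNRNPLL bind CA repeats, and HNRNPLL is known as a regulator of splicing in activated lymphocytes. HNRNPLL (ENSG00000143889, chr2:38561969-38603586) had 1231 and 885 normalized counts in siControl, 2093 and 1526 with siADAR1 #1 and 1128 and 1084 with siADAR1 #2. The replicates of siControl and of siADAR1 #1 were far apart, yet both siADAR1 #1 libraries exceeded the other 4. HNRNPLL rose with siADAR1 #1 (log2FC 0.77, SE 0.208, adjusted p = 0.0391), had a log2FC of 0.08 with siADAR1 #2, and differed between the siRNAs (0.69, adjusted p = 0.0341).

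The HNRNPLL call against siControl depended on single libraries, with adjusted p-values of 0.0728 and 0.197 without siControl replicate 1 or 2, 0.194 without siADAR1 #1 replicate 1, and 0.0606 and 0.0597 without siADAR1 #2 replicate 1 or 2. Its difference between the siRNAs was likewise lost without siADAR1 #1 replicate 1 (adjusted p = 0.17) or either siADAR1 #2 library (adjusted p = 0.104 and 0.117). HNRNPL fell with siADAR1 #2 (-0.56, adjusted p = 0.0159), where leaving out siControl replicate 1, siADAR1 #2 replicate 1 or siADAR1 #2 replicate 2 ended the call (adjusted p = 0.0963, 0.0905 and 0.0651). With siADAR1 #1 its log2FC was -0.48 (adjusted p = 0.0402). As a share of the summed per-length level of both genes, HNRNPLL stood at 5.73% and 4.71% in siControl, 14.6% and 9.13% with siADAR1 #1 and 8.10% and 7.67% with siADAR1 #2.

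HNRNPM, which takes part in the splicing changes of the epithelial-mesenchymal transition, fell with siADAR1 #2 (log2FC -0.63, SE 0.107, adjusted p = 0.00423). It had 23314 and 21106 normalized counts in siControl, 21131 and 20856 with siADAR1 #1 and 15110 and 13599 with siADAR1 #2. The siADAR1 #1 libraries reached into the range of siControl, and the siRNAs differed (0.55, adjusted p = 0.00581), a call lost without siADAR1 #2 replicate 2 (0.47, adjusted p = 0.0496). HNRNPR and SYNCRIP, a pair of related proteins that act in mRNA transport and translation, were not called. HNRNPR had log2FC values of -0.01 and -0.42 (adjusted p = 0.0146 for the latter), and SYNCRIP of -0.24 and -0.28.

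In the hnRNP U group, 2 of 3 genes were called lower with siADAR1 #1 and 3 of 3 with siADAR1 #2, where 11.0% and 16.0% of all genes were. HNRNPU, also called scaffold attachment factor A, binds chromatin-associated RNA, and its relatives HNRNPUL1 and HNRNPUL2 are linked to the response to DNA damage. HNRNPUL1 (ENSG00000105323, chr19:41262496-41307787) had 27680 and 24178 normalized counts in siControl, 11793 and 14996 with siADAR1 #1 and 15454 and 16152 with siADAR1 #2. HNRNPUL2 (ENSG00000214753, chr11:62712630-62727457) had 14572 and 13488 in siControl, 8923 and 10141 with siADAR1 #1 and 8839 and 8610 with siADAR1 #2. In both genes the siADAR1 libraries lay far below siControl, and those of the siRNAs lay close together.

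HNRNPUL1 fell with siADAR1 #1 (log2FC -0.96, SE 0.139, adjusted p = 0.00587) and with siADAR1 #2 (-0.71, SE 0.139, adjusted p = 0.00751). The former call was lost without siControl replicate 1 (-0.86, adjusted p = 0.0601), and the latter without siControl replicate 1 (-0.61, adjusted p = 0.0594) or siADAR1 #2 replicate 1 (-0.68, adjusted p = 0.0565). HNRNPUL2 fell as well, by 0.56 with siADAR1 #1 (SE 0.11, adjusted p = 0.0146) and by 0.68 with siADAR1 #2 (SE 0.11, adjusted p = 0.00347). Its siADAR1 #1 call was lost without siControl replicate 1, siControl replicate 2 or siADAR1 #1 replicate 1 (adjusted p = 0.0903, 0.0543 and 0.0844), and its siADAR1 #2 call held with every library left out. A readthrough gene, HNRNPUL2-BSCL2, shares 44.3% of the exonic bases of HNRNPUL2 on the same strand. The readthrough gene had 4097 and 4123 normalized counts in siControl, 3079 and 3453 with siADAR1 #1 and 4894 and 5162 with siADAR1 #2, and how reads were divided between it and HNRNPUL2 is uncertain.

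HNRNPU had 50752 and 47671 normalized counts in siControl, 41206 and 43711 with siADAR1 #1 and 29692 and 34913 with siADAR1 #2. Its 3 groups did not overlap. HNRNPU fell with siADAR1 #2 (log2FC -0.61, SE 0.113, adjusted p = 0.00605), a call lost without siADAR1 #2 replicate 1 (-0.49, adjusted p = 0.0633), and had a log2FC of -0.21 with siADAR1 #1.

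**Figure D4:**
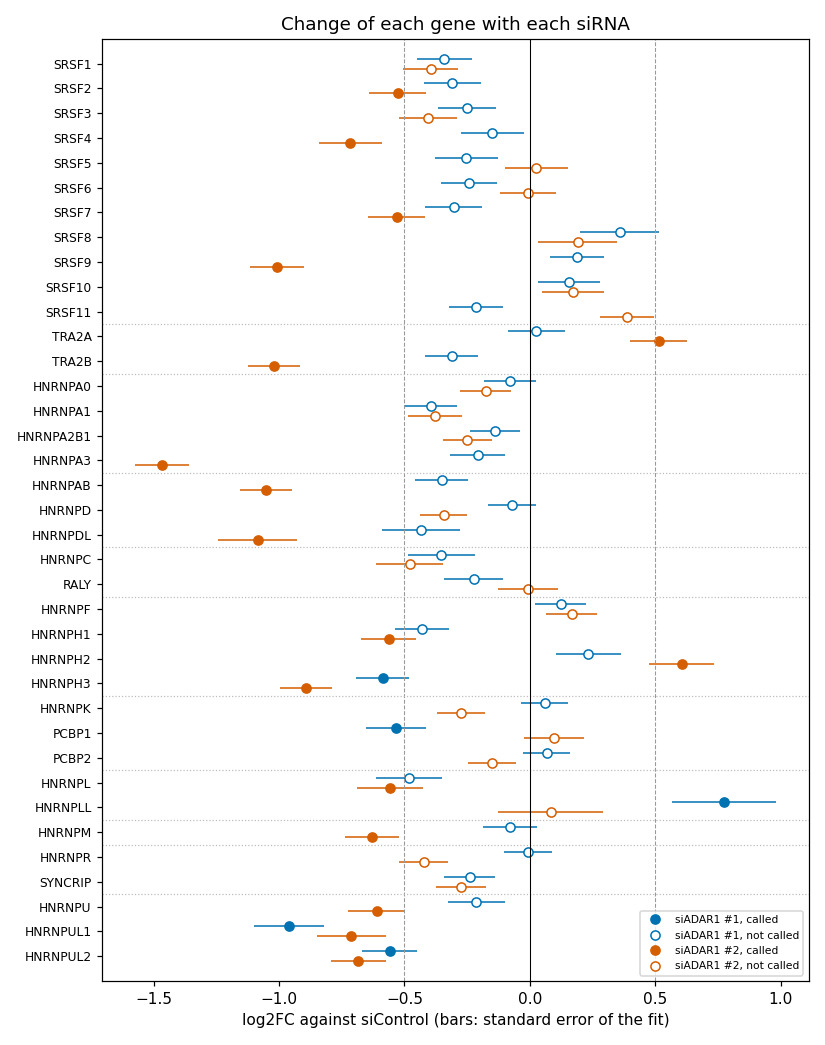
Log2FC of each gene against siControl (x axis) with siADAR1 #1 in blue and siADAR1 #2 in orange; bars are standard errors of the limma fit, filled points are called genes and dashed lines mark the limits at 0.5 in either direction. Filled points of both colours occur for HNRNPH3, HNRNPUL1 and HNRNPUL2, and 14 genes have a filled orange point alone.

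The direct comparison of the siRNAs takes no mean from the siControl libraries. It called 10 of 37 genes, or 27.0%, where 33.7% of all genes tested were called. Of these, 8 were higher with siADAR1 #1 than with siADAR1 #2 (SRSF4, SRSF9, TRA2B, HNRNPA3, HNRNPAB, HNRNPDL, HNRNPLL and HNRNPM), beside a background of 16.5%. The other 2, SRSF11 and PCBP1, were lower, beside a background of 17.3%. The 8 are 21.6% of the set and the 2 are 5.41%. Among the 14299 genes with a mean of at least 50 normalized counts, 21.2% were higher and 21.4% lower. With no limit on log2FC, 14 genes (37.8%) passed, beside 37.6% of all genes. With centred libraries the calls among all genes moved from 3332 higher and 3498 lower to 4080 higher and 2964 lower, and those in the set from 8 and 2 to 10 and 1. Quantile normalization gave 3475 higher (17.2%) and 3379 lower (16.7%) among all genes, and 6 and 3 in the set, so the share of higher calls in the set was then no larger than that of all genes.

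When the 4 siADAR1 libraries were taken as 1 group, limma called 0 of the 37 genes and 0 of all genes tested (0.0%). ADAR itself, the silenced gene, was thus not called either. In this fit the difference between the siRNAs counts as spread, so the lack of calls does not show that a shared change was absent. At an unadjusted p-value below 0.05 there were 14 of 37 (37.8%) and 14.2% of all genes. HNRNPUL1 had the largest absolute log2FC but for HNRNPA3 (-0.84 for each), with adjusted p-values of 0.146 and 0.452. In 20 of the 37 genes (54.1%) each siADAR1 library was lower than either siControl library, where this held for 17.0% of all genes tested. Each was higher than either siControl library in 3 genes, SRSF10, HNRNPF and HNRNPH2, which is 8.11% of the set beside 12.0% of all genes. These shares of all genes were not recomputed for genes of higher counts. Averaging the log2FC values of both siRNAs in the 3-group fit, which keeps the difference between the siRNAs out of the spread, called 8 genes lower (TRA2B, HNRNPA3, HNRNPAB, HNRNPDL, HNRNPH3, HNRNPL, HNRNPUL1 and HNRNPUL2), or 21.6%, beside 11.5% of all genes.

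Annotation of the set was compared with that of 14274 coding genes tested. At least 1 transcript annotated for nonsense-mediated decay is listed for 29 of the 37 genes (78.4%) and for 46.4% of the coding genes, and a transcript with a retained intron for 78.4% and 58.3%. HNRNPA2B1 lists 35 decay transcripts and HNRNPA1 18, whereas PCBP1, HNRNPA0 and HNRNPH2 have a single annotated transcript each. The values used here are sums over all transcripts of a gene, so decay isoforms and coding isoforms cannot be told apart. In the annotation, 14 of the 37 genes share exonic bases with a gene on the opposite strand.

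Lists of genes around these families were followed in the same fits, in which 6.39% of all genes were called higher and 11.0% lower with siADAR1 #1, and 11.6% higher and 16.0% lower with siADAR1 #2. Of 14 kinases, importers and methyltransferases of SR proteins, 1 was called higher and 2 lower with siADAR1 #1, and 3 higher and 1 lower with siADAR1 #2. CLK2, a nuclear kinase of SR proteins, rose with both (log2FC 0.67, adjusted p = 0.0169, and 0.88, adjusted p = 0.00304), from 829 and 811 normalized counts in siControl to 1355 and 1254 with siADAR1 #1 and 1624 and 1408 with siADAR1 #2. SRPK3, a muscle-associated kinase of low expression, had 13 and 52 normalized counts in siControl, 18 and 21 with siADAR1 #1 and 425 and 237 with siADAR1 #2, and rose with the latter (3.46, adjusted p = 0.00398). CARM1, an arginine methyltransferase, fell with siADAR1 #1 (-0.69, adjusted p = 0.0114).

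Of 36 SR-related proteins outside the set, 2 were called higher and 4 lower with each siRNA. U2SURP, a protein associated with the U2 particle, rose with siADAR1 #1 (1.03, adjusted p = 0.00299), while U2AF2, which recognises the polypyrimidine tract, fell (-0.69, adjusted p = 0.00209) and LUC7L2, a U1-associated factor, rose (0.81, adjusted p = 0.0028) with siADAR1 #2. Among 32 other hnRNP-like RNA-binding proteins, 1 was called higher and 9 lower with siADAR1 #1, and 1 higher and 12 lower with siADAR1 #2. Their median log2FC was -0.18 and -0.35, between those of the 37 genes and of all genes. RBM3, a cold-induced protein, RBMX, and KHSRP, which binds AU-rich elements, fell with siADAR1 #2 (-0.91, -0.85 and -0.78, with adjusted p = 0.00133, 0.00165 and 0.00196). Of 15 factors of nonsense-mediated decay, 1 was called higher and 2 lower with siADAR1 #1, and 2 higher and 5 lower with siADAR1 #2. SMG1, the kinase of UPF1, and UPF3A rose with siADAR1 #2 (0.64, adjusted p = 0.00267, and 0.70, adjusted p = 0.00391), and UPF3B, the paralog of UPF3A, fell (-0.73, adjusted p = 0.00408).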

How the data were processed

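Poly(A)+ RNA-seq values of 6 Cal62 libraries were used. Per the study's methods, the authors trimmed adapters with Atropos, ran the bcbio-nextgen pipeline, counted reads on known genes with featureCounts and estimated transcript levels with Salmon. The authors normalized gene counts with DESeq2, for which their methods prefer counts estimated from Salmon through Tximport. Which counts underlie the deposited table is not given in the sources used here. The submitters' processing notes name GRCh38, FastQC, featureCounts and Salmon. The deposited table holds log2 values that follow a variance-stabilizing curve shared by all libraries, where 0.347736 stands for a count of 0. Undoing this curve gave whole reads for 100% of values within a tolerance of 0.1, and every column was assigned (0 left unused). Reads per gene sum all transcripts, so a change of isoform can appear as a change of level.

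Groups were tested on the log2 values by limma 3.58.1 under R 4.3.3 (lmFit, eBayes with trend, two-sided), with Benjamini-Hochberg adjustment over the 20247 genes with a mean of at least 10 normalized counts. Residual degrees of freedom were 3 for the 3-group fit and 4 for the fit that joined the siADAR1 libraries. Per-length levels used the joined length of all annotated exons of a gene in GENCODE release 44. These steps were tested on simulated data. Limits from 3 reads cover counting error only, and 2 libraries per group limit the precision further.

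The genes, lists and tests were chosen with earlier results of these data known. Values of every library are given for genes called with both siRNAs, the 6 largest changes among those called with 1 siRNA, the 5 largest between the siRNAs and the 5 highest per-length levels in siControl. Such values of SRSF4, SRSF11, TRA2A, HNRNPC, HNRNPH2, HNRNPM and HNRNPU were added after they were seen. From each other list at most 3 genes with the smallest adjusted p-values were named. The alternatives were other filters, centred or quantile-normalized libraries, eBayes without a trend or robust, voom on recovered reads, a pseudocount of 1, fewer libraries in the fit, the replicate number as a block, no limit on log2FC, and each library left out.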

Additional observations from a re-analysis of the deposited data

Results flagged for a closer look

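In 10 of the 37 genes the changes with siADAR1 #1 and siADAR1 #2 differed from each other in limma's test of the difference itself (log2FC of siADAR1 #1 against siADAR1 #2), beside 33.7% of all genes tested. The value was 1.20 for SRSF9, which was below siControl with siADAR1 #2 only. It was 1.26 for HNRNPA3, 0.71 for TRA2B, 0.70 for HNRNPAB and 0.65 for HNRNPDL, whose siADAR1 #1 libraries lay between siControl and siADAR1 #2. SRSF4 and HNRNPM had values of 0.57 and 0.55, with siADAR1 #1 libraries that reached into the siControl range. HNRNPLL, at 0.69, was high with siADAR1 #1 only, and PCBP1, at -0.63, was low with siADAR1 #1 only. SRSF11, at -0.60, had siControl libraries between those of the siRNAs. In HNRNPA3, HNRNPAB, PCBP1, SRSF9 and TRA2B the difference was called under all 17 alternatives. Each siRNA was used in 2 libraries, and the cause of these differences was not tested.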

How the results depend on the processing

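The 32 calls named in the text (5 with siADAR1 #1, 17 with siADAR1 #2 and 10 between the siRNAs) were recomputed under 17 alternatives each. Having no limit on log2FC could lose none of them. Other filters, other eBayes settings, fewer libraries in the fit and the block left the log2FC as it was, so its direction could not change there. The same held where the library left out belonged to the group outside the comparison. Each call also had a log2FC beyond 0.5 at the start, which makes a change of direction unlikely. All alternatives together gave 544 values. Of these 475 remained called, 69 did not, and 0 changed direction. With siADAR1 #1 the count of 5 became 2 with centred libraries, 3 with quantile normalization, 1 with eBayes without a trend and 8 with no limit on log2FC, and it ranged from 0 (without siControl replicate 1) to 6 when single libraries were left out. With siADAR1 #2 the count of 17 became 11 with eBayes without a trend and ranged from 10 to 17 with single libraries left out. Between the siRNAs it ranged from 7 to 10 with single libraries left out and was 14 with no limit on log2FC. With the 4 siADAR1 libraries as 1 group it was 0 in each alternative except the average of the siRNA changes, which gave 8. Where a group was left with 1 library, that library was assumed to vary like the other groups. The share of all genes called moved with these settings too. With eBayes without a trend it was 7.3% with siADAR1 #1 and 22.8% with siADAR1 #2. With the average of the siRNA changes it was 17.8%. Among calls that held when any single library was left out, HNRNPM with siADAR1 #2 (-0.47) and SRSF11 between the siRNAs (-0.50) fell within the limit on log2FC, the former with quantile normalization and the latter with centred libraries.

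Same-numbered libraries deviated together weakly (correlations of 0.111 to 0.150 over 20247 genes), and with 2 pairs the numbers were not taken to pair the cultures. With the replicate number as a block all 32 calls were kept, with counts of 5, 17, 10 and 0. The lowest value among the 37 genes was 885 normalized counts, for HNRNPLL in 1 siControl library, where 3 reads were worth 3.06, and 2 libraries per group limit the precision.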
